A study of Danio rerio with 12 samples.

Results

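The Hox genes of the regenerating zebrafish caudal fin are described here by cluster and by paralogue number, the number that gives a gene's place along its cluster. Members were the rows whose gene name was hox, a cluster letter from a to d, a paralogue number and, where given, a copy letter. The rule used names and no expression value. It was set with earlier results of these data known, and only genes with a row could be members. Of 16951 genes in the mRNA table, 22 were members: 6 in cluster a, 3 in cluster b, 8 in cluster c and 5 in cluster d. By position, 4 had paralogue numbers 1 to 8, 8 had numbers 9 or 10, and 10 had numbers 11 to 13.

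Adult zebrafish of the wild-type Ekkwill (EK) line were anesthetized and part of each caudal fin was cut off. The regenerating group was the 4 days post-amputation (dpa) regenerate, with 3 strand-specific polyA+ mRNA libraries, and the uninjured group was the 0 dpa fin tissue, also with 3 libraries. No genetic change or drug was used apart from the anesthetic. Each library held tissue from several pooled fins, so p-values measure the spread between these 3 pools a day. The age of the fish is not given in the sources used here. The design asks which genes differed between the regenerating and the uninjured fin.

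Hox genes encode transcription factors with a homeodomain, a DNA-binding fold, and lie in clusters in which the order of genes follows the body regions that use them. Genes at the high-numbered end act at the tail end of the trunk and in the outer parts of fins and limbs. In zebrafish the hox13 genes of clusters a and d are needed to form rays in some fins. Whether the caudal fin needs them was not tested here. The teleost genome duplication gave pairs of copies of each cluster, marked a and b after the paralogue number, and many copies have since been lost.

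Not every Hox gene could be followed. In all, 49 Ensembl identifiers carried a Hox name and 22 of them had a row. For paralogues 1 to 8, 4 of 25 named identifiers had a row, against 8 of 9 for paralogues 9 and 10 and 10 of 15 for paralogues 11 to 13, a count that includes 2 identifiers of hoxa13a. The other identifiers were not analysed here, and an identifier without a row is not shown to be silent, since the table follows an older gene build and its lowest mean level was 0.439 CPM (reads of a gene scaled to library size). Of the rows, 3287 had no symbol, so further Hox copies may stand among them. HOXC6, HOXC12 and HOXC13 are given as the name table writes them, without a copy letter. A gene can enter such a table through the day on which it is high, so how many members have a row supports nothing about the comparison.

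The libraries held 17928712 to 25223147 reads. Every Hox member had reads in every library, between 6 and 2986 of them. Fold changes below are on the log2(CPM + 1) scale, which understates the change of low genes, and adjusted p-values come from limma over all 16951 genes. Of all genes, 5093 rose and 5433 fell at 4 dpa, with a median change of -0.02. Dividing-cell markers rose in 6 of 6 rows, with a summed level of 655 to 714 CPM at 4 dpa and 302 to 334 CPM at 0 dpa. The 5 osteoblast and ray-matrix rows summed to 8048 to 8962 CPM at 4 dpa and 186 to 268 CPM at 0 dpa, and 4 of them rose. Of 7 fin epidermis rows, 4 fell and 1 rose (30875 to 36096 CPM at 4 dpa, 47081 to 55132 CPM at 0 dpa). All 5 Schwann cell rows fell (77.9 to 85.5 CPM at 4 dpa, 201 to 221 CPM at 0 dpa), as did 5 of 8 leukocyte rows, of which 1 rose (340 to 424 CPM at 4 dpa, 552 to 849 CPM at 0 dpa). Neuronal and muscle markers had 2 rows each, of which 1 rose and 1 fell. Of 2 red blood cell rows 1 rose, and so did the 1 endothelium row. No marker row stood at 0 reads in any library. The lowest mean of any gene with a row was 0.439 CPM. plp1b (Schwann cells, 0.238 CPM) and lyz (leukocytes, 0.289 CPM) had lower means at 4 dpa. and2 (ray matrix, 0.117 CPM) and STMN2 (neuronal, 0.257 CPM) had lower means at 0 dpa. Each may have a row only through the other day, so its change is not read further. The marker counts above include these rows and carry that limit. The part of these cell types in the Hox results was not tested. In whole tissue, fewer cells of a type and less RNA per cell cannot be told apart.

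Hox genes of clusters a and b were upregulated in the regenerate, as were most of cluster d, while cluster c held every Hox gene that was downregulated. Of the 22 members, 13 rose and 4 fell, 17 called in all. Over all genes 62.1% were called, 30% as higher and 32.1% as lower at 4 dpa. In cluster a 6 of 6 rose, in cluster b 3 of 3, in cluster d 3 of 5 and in cluster c 1 of 8, while 4 of 8 fell in cluster c and none of the members elsewhere did. The median change was 1.27 in cluster a, 0.92 in cluster b, 0.59 in cluster d and -0.35 in cluster c, against 0.47 over the 22 members and -0.02 over all genes. The values of the days did not overlap for 18 members, a pattern met by 68.1% of all genes.

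The authors' adjusted library sizes set this scale. When reads were scaled to library totals instead, the median of all genes moved to 0.24, with 7518 genes higher and 3595 lower. Then 14 Hox members were higher and 3 lower, and the cluster medians were 1.54 for a, 1.13 for b, 0.80 for d and -0.13 for c. Relative to the median of all genes, the median of cluster c was lower by either scale (-0.32 as deposited, -0.37 by totals), and that of cluster a was higher (1.30 by either).

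**Figure D1:**
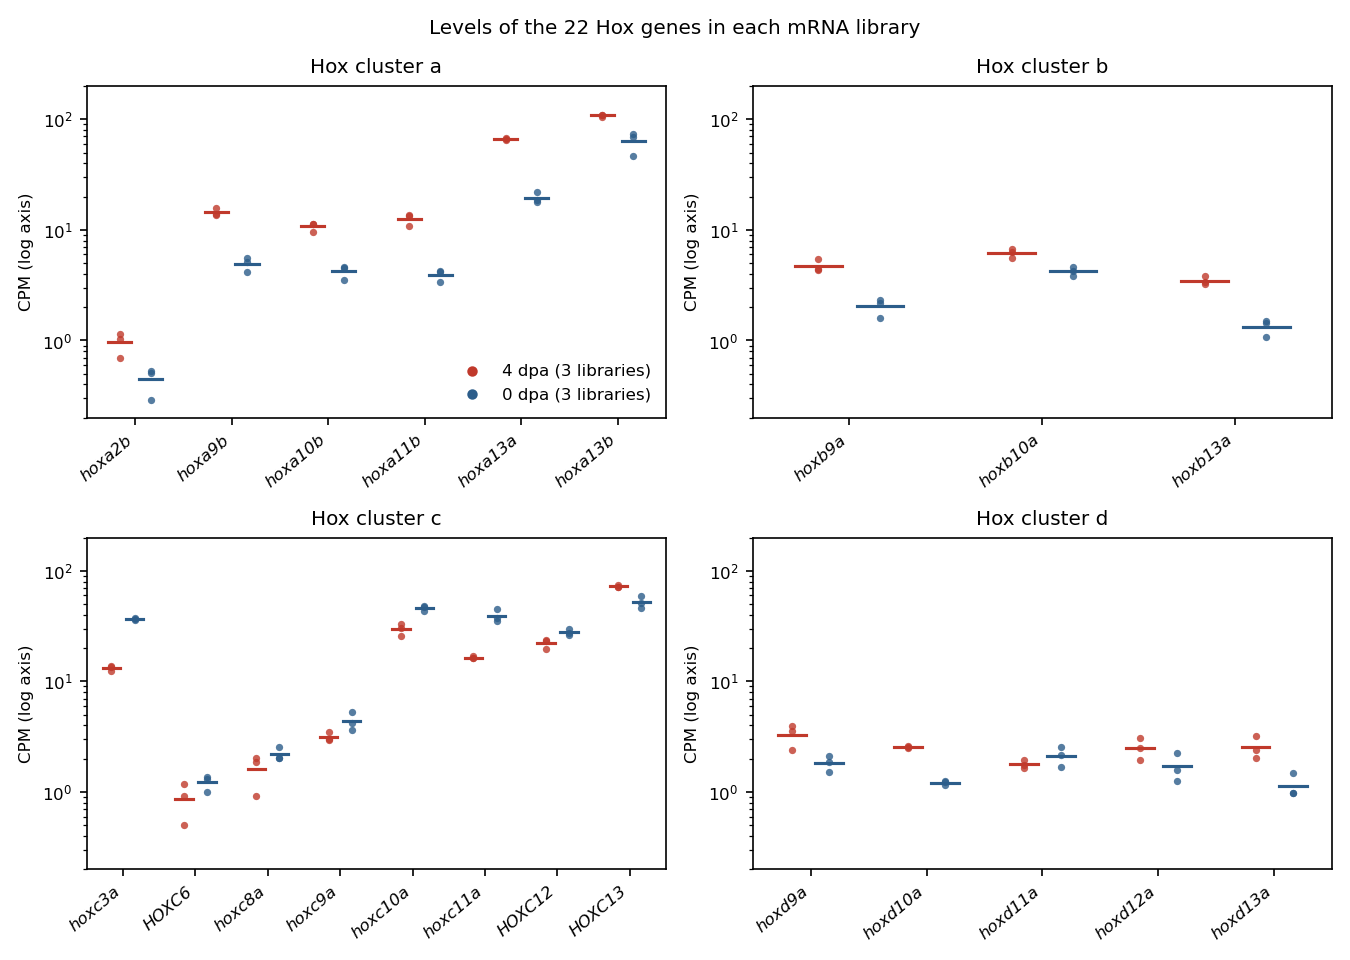
Level of each of the 22 Hox genes in CPM on a log axis, by cluster and in order of paralogue number. Points are libraries (3 at 4 dpa in red, 3 at 0 dpa in blue) and lines are means. The red points lie above the blue ones for all 6 genes of cluster a and all 3 of cluster b, and below them for hoxc3a, hoxc9a, hoxc10a, hoxc11a and HOXC12.

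Cluster a rose throughout, most of all at hoxa13a. hoxa13a, whose mammalian counterpart patterns the hand and foot, had 66.9, 65.5 and 68.1 CPM at 4 dpa, against 22.2, 17.7 and 18.7 CPM at 0 dpa. The regenerating libraries were close to each other and all stood far above the uninjured ones. The change was 1.73 ± 0.10 (SE, adjusted p = 4.6e-06), and 3.63% of all genes had a higher one. Its duplicate hoxa13b had 110.2, 105.2 and 110.1 CPM at 4 dpa, against 46.5, 73.8 and 68.8 CPM at 0 dpa. Here the uninjured libraries were further apart, with replicate 1 lowest, but none reached a regenerating one. hoxa13b changed by 0.80 ± 0.16 (adjusted p = 0.00273).

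hoxa11b, whose mouse counterpart shapes the forearm and lower leg, had 13.3, 13.7 and 10.9 CPM at 4 dpa, against 4.23, 4.13 and 3.36 CPM at 0 dpa. It changed by 1.47 ± 0.13 (adjusted p = 4.0e-05), and its mean CPM was 3.24 times as high in the regenerate. hoxa10b had 11.3, 9.61 and 11.3 CPM at 4 dpa, against 4.65, 3.53 and 4.53 CPM at 0 dpa, a change of 1.17 ± 0.13 (adjusted p = 0.000132). The days did not overlap for either gene. hoxa9b had 13.5, 15.7 and 14.0 CPM at 4 dpa, against 4.12, 5.52 and 5.17 CPM at 0 dpa, a change of 1.38 ± 0.13 (adjusted p = 4.7e-05).

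hoxa2b, which sets the identity of the second pharyngeal arch in zebrafish, was the only low-numbered member of cluster a and the only member with a mean under 1 CPM. Its libraries ranged over 0.702 to 1.15 CPM at 4 dpa and 0.292 to 0.529 CPM at 0 dpa, or 19 to 30 reads and 6 to 11 reads. It changed by 0.44 ± 0.15 (adjusted p = 0.0285). This call was lost with quantile normalization (adjusted p = 0.0593) and with the replicate number as a block (0.0519). It was also lost without 4 dpa replicate 2 (0.0683), 4 dpa replicate 3 (0.0896) or 0 dpa replicate 3 (0.0920). By cluster copy, the 5 members of copy b of cluster a all rose, with a median of 1.17, and hoxa13a was the only member of copy a.

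All 3 members of cluster b rose. hoxb13a, whose counterpart in mouse acts at the tail end of the body axis, had 3.80, 3.36 and 3.22 CPM at 4 dpa, against 1.43, 1.07 and 1.51 CPM at 0 dpa. The change was 0.94 ± 0.13 (adjusted p = 0.000425). hoxb9a had 4.32, 5.42 and 4.41 CPM at 4 dpa, against 1.59, 2.18 and 2.34 CPM at 0 dpa, a change of 0.92 ± 0.15 (adjusted p = 0.000859). For both genes every regenerating library was above every uninjured one. hoxb10a, a paralogue that mammals have lost from this cluster, had 5.61, 6.25 and 6.78 CPM at 4 dpa, against 4.60, 4.27 and 3.80 CPM at 0 dpa. It changed by 0.47 ± 0.12 (adjusted p = 0.0108), or by 0.72 with reads scaled to library totals, the smallest of the 3 changes in the cluster by either scale. All 3 members belong to copy a of cluster b, and none of the named identifiers of paralogues 1 to 8 in either copy had a row.

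**Figure D2:**
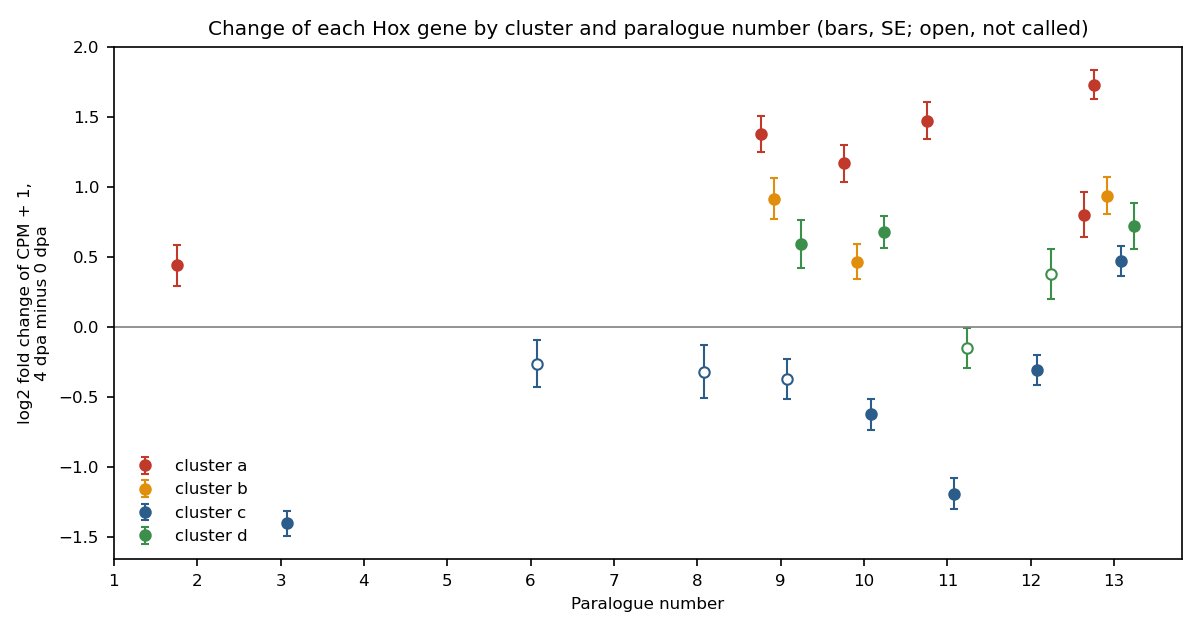
Change of each Hox gene (log2 fold change of CPM + 1, 4 dpa minus 0 dpa) against its paralogue number, with clusters in colour and small shifts to the side so that points do not hide each other. Bars are SE from limma over 3 libraries a day, and open points were not called. The points of cluster a lie between 0.44 and 1.73, and those of cluster c between -1.40 and 0.47, with HOXC13 the only one above 0.

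In cluster c, 4 of 8 members fell and 1, HOXC13, rose. hoxc3a, a paralogue that mammals have lost, had 12.4, 13.5 and 13.6 CPM at 4 dpa, against 36.4, 37.1 and 35.9 CPM at 0 dpa. Both sets of libraries were tight, and the uninjured level was 2.77 times the regenerating one. The change was -1.40 ± 0.09 (adjusted p = 6.7e-06), the lowest of any Hox member. In the RefSeq gene models of assembly GRCz12tu the span of hoxc3a contains 5 other genes of the cluster: hoxc4a, hoxc5a, hoxc6a, hoxc8a and hoxc9a. How reads in such a span were assigned is not given in the sources used here, so the row of hoxc3a and those of HOXC6, hoxc8a and hoxc9a are uncertain to that extent.

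hoxc11a, which in mammals is used in the hindlimb and lower trunk, had 17.0, 16.1 and 16.2 CPM at 4 dpa, against 37.1, 35.2 and 44.9 CPM at 0 dpa. The change was -1.19 ± 0.11 (adjusted p = 4.6e-05), and no library of 1 day reached the other day's range. hoxc10a, likewise a hindlimb and lower-trunk gene in mammals, had 30.2, 32.9 and 25.6 CPM at 4 dpa, against 47.7, 46.6 and 43.7 CPM at 0 dpa. It changed by -0.63 ± 0.11 (adjusted p = 0.00137), and by -0.33 with reads scaled to library totals (adjusted p = 0.0290).

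HOXC12 had 23.1, 19.7 and 23.9 CPM at 4 dpa, against 29.6, 26.0 and 27.6 CPM at 0 dpa, a change of -0.31 ± 0.11 (adjusted p = 0.0342). The gap between the days was narrow. With reads scaled to library totals, HOXC12 changed by -0.02 (adjusted p = 0.915). The call was also lost without 4 dpa replicate 1 (adjusted p = 0.0662), 4 dpa replicate 2 (0.0950), 0 dpa replicate 1 (0.0820) or 0 dpa replicate 3 (0.0719).

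HOXC13, the last gene of the cluster, whose mammalian counterpart is needed for hair and nails, was the only member of cluster c that rose. It had 70.9, 74.1 and 71.6 CPM at 4 dpa, against 46.0, 51.1 and 59.1 CPM at 0 dpa. The change was 0.47 ± 0.10 (adjusted p = 0.00464), or 0.77 with reads scaled to library totals, and the days did not overlap. All 5 members with paralogue number 13, in all 4 clusters, rose, beside 30% of all genes. Their median was 0.80, with a range of 0.47 to 1.73. Paralogue 13 alone was not a planned group. Of the members with numbers 11 or 12, hoxa11b rose, hoxc11a and HOXC12 fell, and hoxd11a and hoxd12a were not called.

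The other 3 members of cluster c were not called. hoxc9a, a gene of the thoracic region in mouse, had 3.47, 2.94 and 3.03 CPM at 4 dpa, against 5.29, 3.67 and 4.24 CPM at 0 dpa. The days did not overlap, and the change was -0.37 ± 0.14 (adjusted p = 0.0514). It passed the threshold with a pseudocount of 5 (adjusted p = 0.0493), with the replicate number as a block (0.0401) and without 0 dpa replicate 2 (0.0322). Under every other setting hoxc9a stayed uncalled. With reads scaled to library totals it changed by -0.13 (adjusted p = 0.470), and without 0 dpa replicate 1 by -0.26 (adjusted p = 0.160). hoxc8a, also a thoracic gene in mouse, had 0.923, 2.01 and 1.88 CPM at 4 dpa, against 2.01, 2.55 and 2.05 CPM at 0 dpa, and the days overlapped. Its change was -0.32, with a 95% interval of -0.76 to 0.11. HOXC6 had 0.923, 1.19 and 0.498 CPM at 4 dpa, against 1.00, 1.30 and 1.36 CPM at 0 dpa, with a change of -0.26 and an interval of -0.65 to 0.12. HOXC6 had 13 to 28 reads a library. The 5 members assigned to copy a of cluster c had a median of -0.63, with 3 of them lower and none higher. HOXC6, HOXC12 and HOXC13 carried no copy letter and were left out of these 5, though they may belong to the same copy. HOXC13, the only member of the cluster that rose, was thus not counted there.

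Cluster d, known for its role in limb and fin outgrowth, rose in part, with 20 to 107 reads on each member in a library. hoxd13a, which acts in the outermost part of fins and limbs, had 2.40, 3.20 and 2.03 CPM at 4 dpa, against 1.48, 0.974 and 0.975 CPM at 0 dpa. The change was 0.72 ± 0.17 (adjusted p = 0.00558). hoxd10a had 2.58, 2.53 and 2.49 CPM at 4 dpa, against 1.16, 1.25 and 1.22 CPM at 0 dpa, a change of 0.68 ± 0.11 (adjusted p = 0.00104). The libraries of each day were very close to each other for hoxd10a. hoxd9a had 3.95, 2.38 and 3.56 CPM at 4 dpa, against 2.11, 1.86 and 1.51 CPM at 0 dpa, a change of 0.59 ± 0.17 (adjusted p = 0.0169). The call on hoxd9a was lost without 4 dpa replicate 1 (adjusted p = 0.0636), 4 dpa replicate 3 (0.0586) or 0 dpa replicate 3 (0.0589).

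hoxd12a and hoxd11a, which lie between these genes and pattern the limb with them in mouse, were not called. hoxd12a had 2.47, 1.96 and 3.07 CPM at 4 dpa, against 2.27, 1.58 and 1.27 CPM at 0 dpa, so the days overlapped. Its change was 0.38, with a 95% interval of -0.04 to 0.79 (adjusted p = 0.101), and it passed the threshold without 0 dpa replicate 1 (0.0317) or with reads scaled to library totals (0.0224). hoxd11a had 1.66, 1.76 and 1.95 CPM at 4 dpa, against 2.54, 1.67 and 2.14 CPM at 0 dpa. Its change was -0.15 with an interval of -0.48 to 0.17, and scaling to library totals turned the sign (0.048, adjusted p = 0.790).

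By position, the groups are small, and the counts stand beside 30% of all genes called higher and 32.1% called lower. The 8 members with paralogue numbers 9 or 10 had 6 that rose and 1 that fell, with a median of 0.63. The 10 members with numbers 11 to 13 had 6 that rose and 2 that fell, with a median of 0.60, and the 4 members with numbers 1 to 8 had 1 of each, with a median of -0.29. The median of numbers 1 to 8 was -0.12 with reads scaled to library totals. All 6 members with numbers 9 or 10 outside cluster c rose, with changes from 0.47 to 1.38, while hoxc10a fell and hoxc9a was not called (-0.37, adjusted p = 0.0514). Of the 7 members with numbers 11 to 13 outside cluster c, 5 rose and none fell, and of the 3 in cluster c, 1 rose and 2 fell. Setting cluster c apart within the positions was not planned. Every member that fell lay in cluster c, so the absence of falls outside it only repeats the counts by cluster. Of the low-numbered members, 3 of 4 lay in cluster c, so position and cluster cannot be told apart at that end.

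A share of reads within the Hox genes does not depend on how a library was scaled. Of the reads on the 22 members, cluster a took 53.8%, 52.7% and 54.0% at 4 dpa, against 27.0%, 32.5% and 30.1% at 0 dpa. Cluster c took 39.6%, 40.6% and 39.1% at 4 dpa, against 67.4%, 62.9% and 65.4% at 0 dpa. The larger share thus lay in cluster a in every regenerating library and in cluster c in every uninjured one. A share is relative, so that of cluster c also drops when cluster a rises. These shares follow transcript length and weight the abundant genes, since hoxa13a and hoxa13b together held 43.8% ± 1.0 at 4 dpa and 25.7% ± 2.9 at 0 dpa (SD, n = 3 each). Cluster b held 3.59% ± 0.17 at 4 dpa and 2.37% ± 0.11 at 0 dpa, and cluster d 3.16% ± 0.18 at 4 dpa and 2.51% ± 0.55 at 0 dpa, where the days overlapped. The summed level of all 22 members was 400.4 ± 1.2 CPM at 4 dpa and 320.9 ± 15.1 CPM at 0 dpa. Unlike the shares, this sum depends on the scaling: by library totals, a value added after the data were seen, it was 437 ± 5.6 CPM at 4 dpa and 283 ± 12.0 CPM at 0 dpa. Cluster c summed to 159 ± 3.1 CPM at 4 dpa and 209 ± 8.3 CPM at 0 dpa as deposited. By library totals, likewise added later, cluster c summed to 174 ± 2.5 CPM at 4 dpa and 185 ± 10.4 CPM at 0 dpa. Cluster a summed to 214 ± 2.9 CPM at 4 dpa and 96.1 ± 12.2 CPM at 0 dpa as deposited. By totals these were 234 ± 5.6 and 84.7 ± 8.8 CPM.

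**Figure D3:**
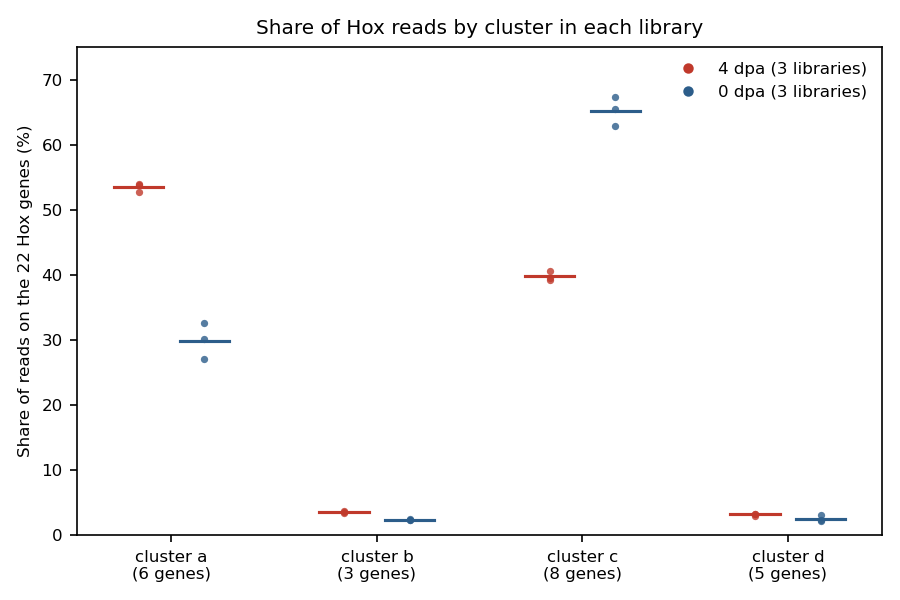
Share of the reads on the 22 Hox genes that fell on each cluster, in percent, by library (3 at 4 dpa in red, 3 at 0 dpa in blue, lines are means). Cluster a held 52.7% to 54.0% at 4 dpa and 27.0% to 32.5% at 0 dpa, and cluster c held 39.1% to 40.6% at 4 dpa and 62.9% to 67.4% at 0 dpa.

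Genes of the same number in different clusters descend from 1 ancestral gene, so their ratio within a library sets the clusters against each other directly. The pairs of cluster a with cluster c were chosen after their values were seen. The log2 ratio of hoxa11b to hoxc11a (CPM + 1) was -0.33, -0.22 and -0.53 at 4 dpa, against -2.87, -2.82 and -3.39 at 0 dpa, a change of 2.67 ± 0.21 (SE). The ratio of hoxa10b to hoxc10a changed by 1.80 ± 0.20 and that of hoxa9b to hoxc9a by 1.75 ± 0.25. Against HOXC13, the ratio of hoxa13a changed by 1.26 ± 0.18 and that of hoxa13b by 0.33 ± 0.15. The first 4 of these ratios did not overlap between days, and the last did. Singly, hoxa9b, hoxa10b and hoxa11b were already higher at 4 dpa without overlap, and hoxc9a, hoxc10a and hoxc11a lower without overlap. The ratios of those pairs therefore could not overlap, so their test was fixed beforehand and adds nothing to the single genes. The exact two-sided permutation test gave p = 0.1 for each of the 4, the smallest that 3 libraries against 3 allow (adjusted p = 0.12 over 6 pairs), and p = 0.2 for hoxa13b to HOXC13.

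The only pair of duplicates in which both copies had a row with a copy letter was hoxa13a and hoxa13b. The log2 ratio of hoxa13a to hoxa13b was -0.71, -0.67 and -0.69 at 4 dpa, against -1.04, -2.00 and -1.83 at 0 dpa. The regenerating libraries were nearly equal and the uninjured ones spread, with replicate 1 nearest to the regenerate. The change was 0.93 ± 0.30 (SE), and the exact two-sided permutation test gave p = 0.1, the smallest that it allows for 3 libraries against 3 (adjusted p = 0.12).

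**Figure D4:**
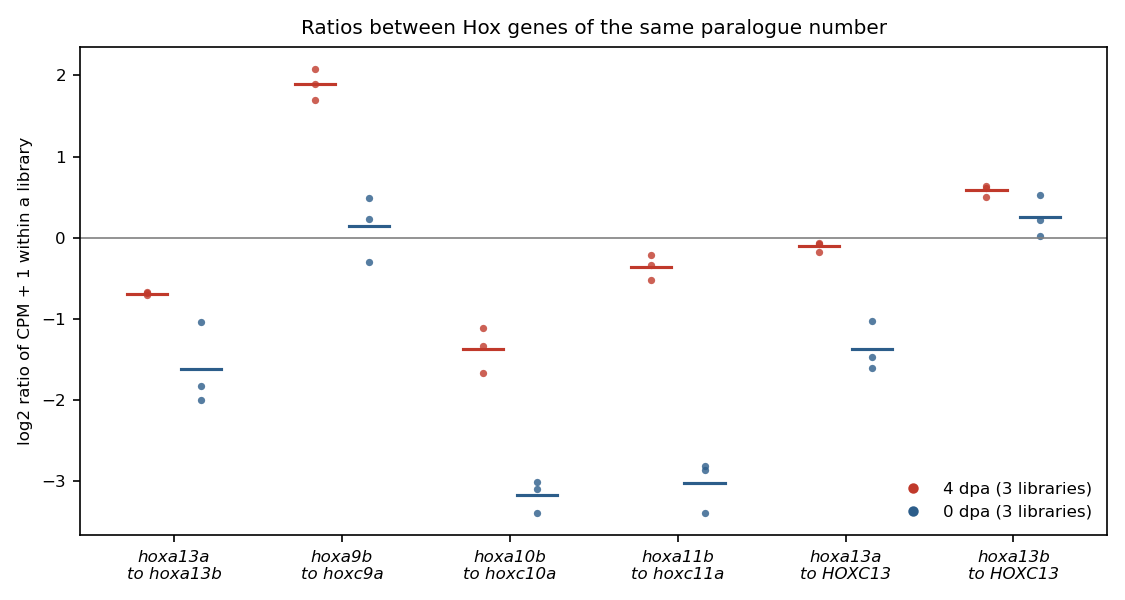
Log2 ratio of CPM + 1 between Hox genes of the same paralogue number within each library, for 6 pairs (3 libraries at 4 dpa in red, 3 at 0 dpa in blue, lines are means). The days do not overlap for 5 pairs and overlap for hoxa13b to HOXC13; the change is 2.67 for hoxa11b to hoxc11a.

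Beside the Hox genes, other homeobox genes of appendage outgrowth were strongly upregulated. Of 16 rows, 15 rose and 1 fell, so 16 of 16 were called beside 62.1% of all genes, with a median change of 1.68. PRRX1, a marker of limb and fin mesenchyme, had 2 rows, of which the higher (ENSDARG00000033971) had 191, 184 and 193 CPM at 4 dpa, against 57.8, 64.1 and 71.6 CPM at 0 dpa. dlx3b, a distal-less gene of the skin and outgrowing fin, had 134, 139 and 164 CPM at 4 dpa, against 84.7, 56.5 and 53.5 CPM at 0 dpa. The largest changes were those of msx3 (3.16 ± 0.19), an msx gene like those active in the fin blastema, and of the other PRRX1 row (2.45 ± 0.10). LMX1B, which marks the dorsal side of limbs in mammals, was the only row that fell, with 0.517, 0.310 and 0.383 CPM at 4 dpa, against 2.38, 2.18 and 2.00 CPM at 0 dpa. It was named after its value was seen. The 4 dpa mean of LMX1B (0.403 CPM) lay under the lowest mean of any gene with a row (0.439 CPM). LMX1B may thus have a row only through its 0 dpa level, so its fall is not read further. The counts of this list include LMX1B and carry that limit.

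Hox cofactors, the homeodomain partners with which Hox proteins bind DNA, went both ways: of 7 rows, 2 rose and 3 fell (5 of 7 called beside 62.1% of all genes), with a median of 0.03. pbx4 had 50.8, 44.7 and 56.6 CPM at 4 dpa, against 27.5, 26.0 and 26.5 CPM at 0 dpa, a change of 0.90 ± 0.10. pknox2 had 6.76, 6.35 and 7.93 CPM at 4 dpa, against 1.80, 1.95 and 1.22 CPM at 0 dpa, a change of 1.60 ± 0.15. The 2 cofactors with the highest mean CPM over the 6 libraries, pbx2 and meis1b, fell, though neither was called with reads scaled to library totals. pbx2 had 48.2, 49.6 and 51.3 CPM at 4 dpa, against 59.8, 59.2 and 57.3 CPM at 0 dpa, and meis1b changed by -0.47 ± 0.14. With reads scaled to library totals, 3 of the 7 rose and none fell, the median was 0.30, pbx2 turned to 0.06 (adjusted p = 0.531) and meis1b was at -0.17 (adjusted p = 0.307). Of the axial regulators of posterior Hox genes, NR6A1, a nuclear receptor whose mouse counterpart acts on Hox timing in the trunk, changed by 0.73 ± 0.14 (adjusted p = 0.00248). It had at most 0.930 CPM in any library and 0 reads in 0 dpa replicate 2, and with a mean of at least 1 CPM required it was not tested. The 0 dpa mean of NR6A1 (0.085 CPM) lay under the lowest mean of any gene with a row (0.439 CPM). NR6A1 may thus have a row only through its 4 dpa level, so its rise is not read further. gmnn, which encodes geminin, had 10.9, 9.71 and 8.62 CPM at 4 dpa, against 9.36, 8.72 and 7.99 CPM at 0 dpa (change 0.15 ± 0.12), and was called with reads scaled to library totals (0.42, adjusted p = 0.0177).

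Polycomb and Trithorax proteins keep Hox clusters silent or active through histone marks. Of 26 rows, 10 rose and 7 fell, with a median of 0.06. The 17 of 26 called stand beside 62.1% of all genes, and with reads scaled to library totals 12 rose and 4 fell. kdm6bb, a demethylase that removes the Polycomb mark, had 103, 108 and 109 CPM at 4 dpa, against 27.9, 30.4 and 28.4 CPM at 0 dpa, a change of 1.85 ± 0.08. Its duplicate kdm6ba changed by 0.63 ± 0.17 at the highest level of the list. cbx7a, a reader of the Polycomb mark, had 16.2, 23.8 and 15.2 CPM at 4 dpa, against 64.1, 56.6 and 54.2 CPM at 0 dpa, a change of -1.63 ± 0.16. kmt2bb, a methyltransferase of the Trithorax group, changed by -0.35 ± 0.09, a call lost with reads scaled to library totals (-0.050, adjusted p = 0.671). The writers of the Polycomb mark parted, as ezh2 changed by 1.22 ± 0.11 and ezh1 by -1.38 ± 0.11 (this pair was chosen after its values were seen).

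Genes that lie next to the clusters showed no common direction. Of 25 neighbours with a row, up to 3 a side in RefSeq assembly GRCz12tu, 9 rose and 10 fell, with a median of 0.05. The 19 of 25 called stand beside 62.1% of all genes, and with reads scaled to library totals 12 rose and 7 fell. Beside cluster a 2 of 7 rose and 3 fell, and beside cluster c 1 of 5 rose and 2 fell. nfe2l2a, beside cluster d and a regulator of the oxidative stress response, changed by -1.01 ± 0.10 and hnrnpa1a, an RNA-binding protein gene beside copy b of cluster c, by 0.48 ± 0.10, or by 0.78 with reads scaled to library totals. The largest changes were those of skap1 (-1.46 ± 0.16), beside copy b of cluster b, and snx10b (-1.21 ± 0.15), beside copy b of cluster a. eve1, an even-skipped homeobox gene next to hoxb13a's cluster, had 1.44, 1.96 and 1.88 CPM at 4 dpa, against 0.159, 0.278 and 0.292 CPM at 0 dpa. It changed by 1.15 ± 0.13 (adjusted p = 0.000151), and its regenerating libraries were all far above the uninjured ones. The 0 dpa libraries held only 3, 6 and 6 reads of eve1. Its 0 dpa mean (0.243 CPM) lay under the lowest mean of any gene with a row (0.439 CPM). The gene may thus have a row only through its 4 dpa level, so its rise is not read further. nr1d4a, beside cluster c, fell to a 4 dpa mean of 0.334 CPM, also under 0.439 CPM. It may have a row only through its 0 dpa level. The counts of neighbours include eve1 and nr1d4a and carry that limit.

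**Figure D5:**
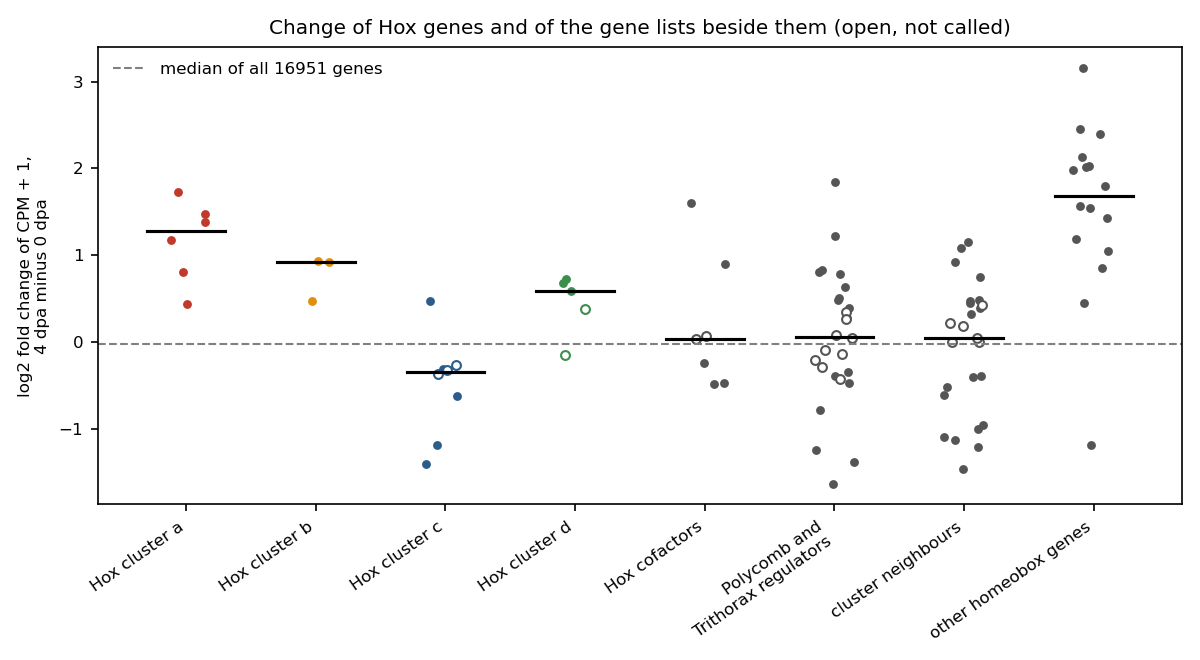
Change of each gene (log2 fold change of CPM + 1, 4 dpa minus 0 dpa) in the 4 Hox clusters and in 4 lists beside them. Points are genes, open points were not called, black lines are medians and the dashed line is the median of all 16951 genes (-0.02). Other homeobox genes have a median of 1.68, Hox cluster a 1.27 and Hox cluster c -0.35, while cofactors, chromatin regulators and neighbours have medians of 0.03 to 0.06.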

How the data were processed

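The 3 mRNA libraries of the 4 dpa regenerate and the 3 of the 0 dpa fin were used; the 6 small RNA libraries were not. The deposited values were log2(CPM + 1) of the authors, with reads divided by adjusted library sizes, 1.08 to 1.10 times the read totals at 4 dpa and 0.855 to 0.908 times at 0 dpa. The submitters' processing notes name Trimmomatic, RSEM, edgeR and assembly Zv9, and genes carry Ensembl version 76 identifiers. The aligner and the strand setting of the counting are not given in the sources used here. Whole reads were recovered for 100% of values (tolerance 0.05 reads), and limma-voom on them called 10508 genes, against 10526 in the main comparison.

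The values as deposited were fitted with limma 3.58.1 (R 4.3.3; lmFit, eBayes with a mean-variance trend) without covariates, 4 dpa against 0 dpa, with Benjamini-Hochberg adjustment over 16951 genes and a threshold of 0.05. The fit was also run on simulated reads with few changed genes and the same dispersion for every gene. These data differ in both, so that run does not vouch for the calls. Pairs of genes were compared with an exact permutation test (SciPy). Replicates of a day differed by more than sampling noise (chi-square per degree of freedom 14.0 to 50.1). The highest values, 50.1 and 41.8, were those of 0 dpa replicate 1 against 0 dpa replicates 2 and 3. Replicates 2 and 3 of 0 dpa gave 14.5 against each other.

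Symbols matched 13664 identifiers. Human-style symbols were given a zebrafish copy letter only where RefSeq left 1 copy, and hoxa13a and hoxa11b were named from the study's gene table. Every Hox member was named or counted. From each other list came the 2 members with the highest mean CPM and the 2 called members with the largest change. Members and lists were chosen with earlier results of these data known. Alternatives were other scalings, pseudocounts of 0.25 and 5, a filter at a mean of 1 CPM, limma-voom, a replicate block and leaving out each library.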

Additional observations from a re-analysis of the deposited data

How the results depend on the processing

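Of the 22 Hox members, 16 kept their direction and call under every one of the 14 other settings (fewer where a member fell under a filter), and no called member changed sign. With reads scaled to library totals, 3595 genes were lower, hoxd11a turned to 0.048, and 3 Hox cofactors and 2 axial regulators were called. Medians then were 0.74 for all Hox members, 1.54, 1.13, -0.13 and 0.80 for clusters a, b, c and d, -0.12, 0.83 and 0.84 for paralogues 1 to 8, 9 to 10 and 11 to 13, 1.43 for copy b of cluster a and -0.33 for copy a of cluster c. With a pseudocount of 5 they were 0.28 for all Hox members, 0.87, 0.42, -0.24 and 0.28 for the clusters, -0.11, 0.28 and 0.36 for the positions, 0.77 for copy b of cluster a and -0.57 for copy a of cluster c. With a pseudocount of 0.25 they were 0.64 for all members, 1.40, 1.13 and -0.45 for clusters a, b and c, 0.84 for paralogues 9 to 10 and 1.30 for copy b of cluster a. limma-voom gave 0.70 for all members, 1.45, 1.19, -0.58 and 0.86 for the clusters, -0.58 and 0.95 for paralogues 1 to 8 and 9 to 10 and 1.36 for copy b of cluster a. A filter at a mean of 1 CPM gave 1.38 for cluster a, since hoxa2b was left out, and called 0 axial regulators, since the called one was left out. A minimum of 2-fold left 4 Hox members higher and 2 lower, and 1790 genes higher and 1910 lower. Leaving out 1 library at a time gave medians of -0.41 to -0.35 for cluster c and -0.70 to -0.53 for copy a of cluster c, with 11 to 14 Hox members higher and 3 to 5 lower. Correlations of same-numbered deviations between the days were 0.18, -0.03 and 0.15, and those of other numbers ran from -0.25 to 0.22. Not every library correlated best with its own number. With 3 libraries a day, these values cannot settle whether the libraries were paired. With a replicate block, 12 Hox members were higher and 5 lower, and 10490 genes were called against 10526 without it; hoxa2b lost its call and hoxc9a gained one. HOXC6 and hoxa2b had at most 30 reads in a library. Where a value moved with the scaling or the pseudocount, the cause was not tested.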
